A study of Mus musculus with 16 samples.

Results

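Ifi202b and 7 genes listed with it, Ifi203, Ifi204, Ifi205, Aim2, Mnda, Ackr1 and Olfr231, were followed in whole brain of male mice aged 8 weeks. The 8 genes lie close together on mouse chromosome 1 and were chosen by measured values of these arrays, because Ifi202b read higher in arrays labelled TNF knockout and changed more after stroke there. A gene counted as measured where a probe set of the Affymetrix Mouse Gene 1.0 ST array named it and no other gene, which held for 6 of the 8 among 19938 genes measured in all. Ifi202b (probe set 10360398), Ifi203 (10360391), Ifi205 (10360406), Aim2 (10351867), Ackr1 (10360344) and Olfr231 (10360410) had 1 such probe set each. Ifi204 was named only on probe set 10360382, which it shares with Ifi211, and no probe set carried the symbol Mnda, which RefSeq lists as an older name of Ifi211.

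The study compared 4 groups of 4 arrays each. These were stroke and naive mice labelled TNF knockout, and stroke and naive C57BL/6 mice. Stroke mice had had the middle cerebral artery closed for good 24 h earlier, and since naive mice were not sham-operated, each stroke comparison holds surgery and occlusion together. The labels give neither the allele nor the background strain of the knockout, and do not say that each array came from a separate animal, so that the p-values may reflect technical spread alone.

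Log2 probe set summaries ran between 1.42 and 14.53, and the arrays had medians of 6.01 to 6.05 and correlations of 0.991 to 0.996 between arrays of 1 group. The number of arrays limits their precision. Tnf, the targeted gene, read 6.75, 6.60, 6.99 and 6.88 in stroke arrays labelled TNF knockout and 6.14, 6.46, 6.47 and 6.58 in naive ones, against 5.64, 5.28, 5.67 and 5.68 in C57BL/6 stroke arrays and 5.01, 5.72, 5.08 and 5.41 in C57BL/6 naive ones. It was higher in the knockout label by 1.24 ± 0.14 (SE) after stroke (limma, adjusted p = 0.0001) and in naive mice by 1.11 ± 0.14 (adjusted p = 0.00056), which goes against the label, and whether its probes lie in the deleted part is not known here. The groups are therefore called the arrays labelled TNF knockout. Sample names begin with KL42 in all C57BL/6 arrays and with KL76 or KL82 in the others, so that this prefix and the genotype cannot be told apart. In the knockout label, KL76 holds stroke array 1 with naive arrays 1 to 3, and KL82 the remaining 3 stroke arrays with naive array 4.

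Ifi202b, Ifi203, Ifi204, Ifi205 and Aim2 belong to the AIM2-like receptors, a gene family that type I interferon switches on and whose proteins bind DNA through a HIN domain. Aim2 binds DNA in the cytosol and gathers the adaptor Pycard and caspase-1 into an inflammasome, which matures interleukin-1 beta and interleukin-18. The mouse protein encoded by Ifi202b, p202, lacks the pyrin domain through which Aim2 engages Pycard, and in mice it opposes Aim2. Ackr1 is an atypical receptor that binds inflammatory chemokines on red blood cells and venular endothelium without signalling through G proteins, and Olfr231 encodes an olfactory receptor. The level of Ifi202b mRNA is known to differ between inbred mouse strains.

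The sequence upstream of Ifi202b is shown because its values set it apart from the related genes around it. The window is chr1:173982845-173983094 on the minus strand of GRCm38.p6, the 250 bases before the start of the gene as RefSeq gives it, and the capitals mark a match to the gamma-activated site (GAS) letters TTCNNNGAA.

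Ifi202b: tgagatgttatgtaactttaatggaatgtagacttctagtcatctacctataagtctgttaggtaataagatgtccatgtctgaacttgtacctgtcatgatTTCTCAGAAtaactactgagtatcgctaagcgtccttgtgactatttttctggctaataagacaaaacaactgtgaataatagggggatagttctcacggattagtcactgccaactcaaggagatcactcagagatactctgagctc

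Windows of 250 bases before to 50 after a start were listed under the symbols of 5 of the 8 genes: Ifi202b, Ifi203, Ifi205, Aim2 and Ackr1. Both strands were searched for the core of the interferon-stimulated response element (ISRE), GAAA followed by any 2 bases and GAAA, and for the GAS letters. The ISRE core lay in windows of 2 of these 5 genes, Ifi203 and Ifi205, and of 7 of 8 other AIM2-like receptor genes. Ifi211, which carries the older name Mnda, was counted among these 7 and not among the 5. A gene counted if any of its listed windows matched, which held for 3.99% of all 27025 genes with a window (3.44% of all 32851 windows). No match to it was found in the windows of Ifi202b, Aim2 or Ackr1. The GAS letters occurred in windows of 9.55% of all genes (8.3% of all windows). Among these 5 genes they occurred only in the window of Ifi202b, at position -148 from its start, so that no window of the 5 genes held both motifs. A match describes letters, not a bound site.

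The stretches around the ISRE core, in capitals, are shown for Ifi203, Ifi205 and Ifi211 and for the relatives Ifi207 and Ifi206 (RefSeq, GRCm38.p6, minus strand). Ifi211 carries the older name Mnda and shares its probe set with Ifi204. The stretches lie at chr1:173942493-173942557 for the second listed start of Ifi203, chr1:174031850-174031919 for Ifi205, chr1:173913047-173913113 for Ifi211, chr1:173741811-173741880 for Ifi207 and chr1:173491319-173491388 for Ifi206.

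Ifi203: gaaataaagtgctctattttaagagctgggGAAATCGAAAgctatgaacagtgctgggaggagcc
Ifi205: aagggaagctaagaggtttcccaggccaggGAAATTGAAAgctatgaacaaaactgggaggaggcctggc
Ifi211: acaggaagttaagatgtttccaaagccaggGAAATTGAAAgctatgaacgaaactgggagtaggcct
Ifi207: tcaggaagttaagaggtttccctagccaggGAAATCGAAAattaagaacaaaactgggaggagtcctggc
Ifi206: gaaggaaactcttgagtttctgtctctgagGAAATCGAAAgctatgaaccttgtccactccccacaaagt

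The core began at -35 in Ifi203, -134 in Ifi205, -37 in Ifi211, -41 in Ifi207 and -40 in Ifi206, counted from the start. Ifi205 and Ifi211 matched at 59 of 67 bases (88.1%) of this stretch, and Ifi203 and Mndal, a further relative, at 65 of 65. Ifi203 and Ifi205 matched at 41 of 65 bases (63.1%). These stretches lie upstream of the starts, and no transcript or probe sequences were compared. Whether the probe sets of these related genes tell them apart is uncertain. Ifi205 held another match on the opposite strand, 23 bases after its start, and 1 of the 2 listed windows of Ifi203 held none.

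Ifi202b stood out in 1 group of the 4. The probe set read 3.78, 4.26, 4.18 and 4.43 in stroke arrays labelled TNF knockout, against 3.0, 2.88, 2.96 and 2.86 in naive arrays with that label. In C57BL/6 mice it read 2.96, 2.91, 3.18 and 2.96 after stroke, against 2.70, 2.71, 3.08 and 2.73 in naive mice. Every stroke array of the knockout label lay above all 12 other arrays, and the other 3 groups overlapped. Group means were 4.16 ± 0.28 (SD, n = 4 each) in stroke arrays labelled TNF knockout, 3.0 ± 0.12 after stroke in C57BL/6, 2.93 ± 0.07 in the naive knockout label and 2.81 ± 0.18 in naive C57BL/6, in that order, and the gap of 1.16 at the top was the one step without overlap.

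Between stroke and naive arrays, Ifi202b differed by 1.24 ± 0.12 (SE), 2.36-fold, in the knockout label and by 0.20 ± 0.12 in C57BL/6 mice. Between the labels it differed by 1.16 ± 0.12 after stroke and by 0.12 ± 0.12 in naive mice, where the arrays overlapped. The stroke changes differed by 1.04 ± 0.17 between the labels. These are the values for which the gene was chosen, so they are given without a test. Within the knockout label the stroke difference was 0.83 among arrays of prefix KL76 (1 stroke array, 3 naive) and 1.43 among those of KL82 (3 stroke arrays, 1 naive), with no test, and 1.13 ± 0.13 with the prefix as a term in the fit. Leaving out each of the 16 arrays in turn gave 1.15 to 1.37. Ifi202b was a dim probe set, among the 33.3% of genes with the lowest mean, and no detection p-value was available to say whether the 3 lower groups lay above background.

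**Figure D1:**
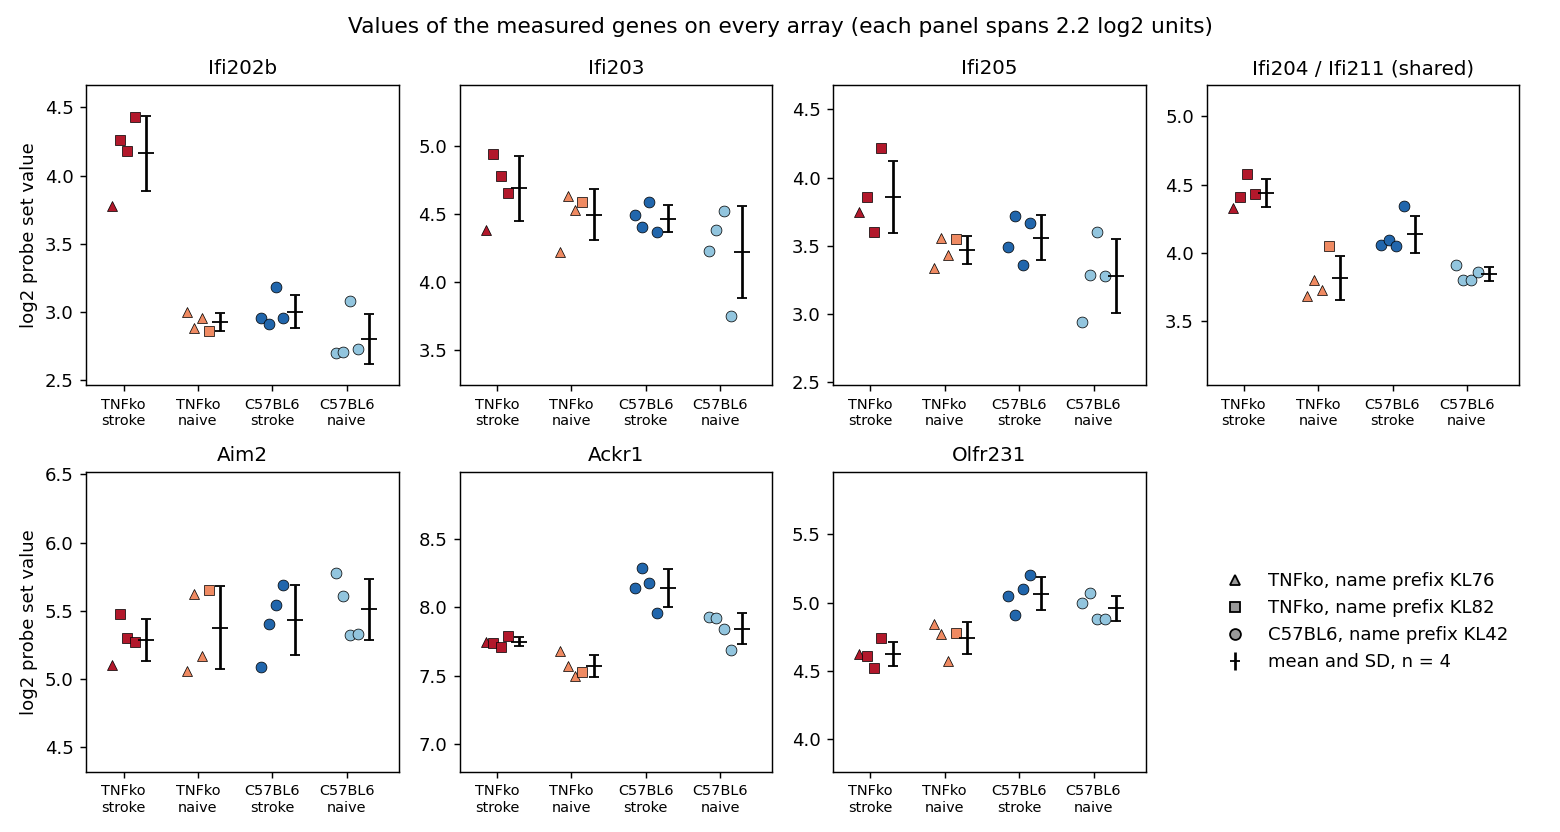
Log2 probe set values on each of the 16 arrays for the 6 measured genes and the probe set of Ifi204 and Ifi211. Each panel spans 2.2 log2 units, the groups run from stroke and naive arrays labelled TNF knockout to stroke and naive C57BL/6 arrays, symbols give the sample name prefix, and bars give the mean and SD (n = 4). Ifi202b reads 3.78 to 4.43 in the stroke arrays labelled TNF knockout and no higher than 3.18 elsewhere, while Ackr1 and Olfr231 lie lower in both groups of that label.

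None of the genes measured beside Ifi202b passed the test for a stroke change in either genotype (0 of 5 measured neighbours in each, limma with Benjamini-Hochberg adjustment over all 19938 genes; 2 of 5 in each at an unadjusted p under 0.05, as 8.39% of all genes in the knockout label and 17.1% in C57BL/6 were). Over all genes, 0.642% passed in the arrays labelled TNF knockout and 1.68% in C57BL/6 mice. The median stroke difference of the 5 neighbours was 0.18 in the knockout label and 0.24 in C57BL/6, against all-gene medians within 0.01 of 0.

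Ifi205, whose product is a DNA-binding member of the family, read 3.75, 3.86, 3.6 and 4.22 in stroke arrays labelled TNF knockout, against 3.34, 3.56, 3.43 and 3.55 in naive ones. C57BL/6 arrays read 3.49, 3.72, 3.36 and 3.67 after stroke, against 2.94, 3.29, 3.6 and 3.28 without it. The lowest stroke array of the knockout label lay above its highest naive array, and the C57BL/6 groups overlapped. The differences were 0.39 ± 0.13 (SE, adjusted p = 0.329) in the knockout label and 0.28 ± 0.13 (adjusted p = 0.285) in C57BL/6, so neither passed.

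Ifi203 encodes another nuclear HIN-domain protein. It read 4.38, 4.94, 4.78 and 4.65 in stroke arrays labelled TNF knockout, against 4.22, 4.63, 4.53 and 4.59 in naive ones. It read 4.49, 4.40, 4.59 and 4.37 in C57BL/6 stroke arrays, against 4.23, 4.38, 4.52 and 3.75 in naive ones. Stroke and naive arrays overlapped in both genotypes, with differences of 0.20 ± 0.14 (adjusted p = 0.801) in the knockout label and 0.24 ± 0.14 (adjusted p = 0.394) in C57BL/6.

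Aim2 read 5.10, 5.48, 5.30 and 5.27 in stroke arrays labelled TNF knockout, against 5.06, 5.62, 5.17 and 5.65 in naive ones. The C57BL/6 arrays read 5.09, 5.40, 5.54 and 5.69 after stroke, against 5.78, 5.61, 5.32 and 5.33 in naive mice. All 4 groups overlapped, and the stroke differences were -0.09 ± 0.15 (adjusted p = 0.952) in the knockout label and -0.08 ± 0.15 (adjusted p = 0.821) in C57BL/6.

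The probe set shared by Ifi204, a mouse relative of human IFI16, and Ifi211 was added to the fit after the annotation had been seen. It read 4.33, 4.41, 4.58 and 4.43 in stroke arrays labelled TNF knockout, against 3.68, 3.80, 3.73 and 4.05 in naive ones. C57BL/6 arrays read 4.06, 4.09, 4.05 and 4.34 after stroke, against 3.91, 3.80, 3.80 and 3.86 in naive mice. Stroke arrays lay above naive arrays in both genotypes, without overlap, as 2.8% of the 19938 genes did in the knockout label and 5.03% in C57BL/6. The signal rose by 0.62 ± 0.09 (SE) with stroke in the knockout label (limma over 21790 probe sets, adjusted p = 0.00107), and the difference of 0.29 ± 0.09 in C57BL/6 did not pass (adjusted p = 0.116). Of the 19938 genes, 0.642% passed in the knockout label and 1.68% in C57BL/6. With the prefix in the fit the change in the knockout label was 0.51 (adjusted p = 0.0146), and it was 0.59 within KL76 and 0.42 within KL82. Whether the stroke changes of the 2 genotypes differ is given as a value only, 0.33 ± 0.13, since Ifi204 was chosen together with that contrast. The probe set cannot say which of the 2 genes carried the signal.

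Ackr1 read 7.75, 7.74, 7.71 and 7.79 in stroke arrays labelled TNF knockout, against 7.68, 7.57, 7.50 and 7.53 in naive ones. C57BL/6 arrays read 8.14, 8.29, 8.18 and 7.96 after stroke, against 7.93, 7.92, 7.84 and 7.69 in naive mice. Stroke arrays lay above naive arrays in both genotypes, and all arrays of the knockout label lay below the C57BL/6 arrays of the same state. The stroke differences, 0.18 ± 0.08 (adjusted p = 0.572) in the knockout label and 0.30 ± 0.08 (adjusted p = 0.0689) in C57BL/6, did not pass. Without C57BL/6 stroke array 4, the lowest of its group, the C57BL/6 difference was 0.36 and passed (adjusted p = 0.0422). It also passed with the 33.3% of genes with the lowest mean left out (adjusted p = 0.0352), with robust and trended variances (0.0402) and with the replicate number as a block (0.0446).

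Olfr231 read 4.62, 4.61, 4.52 and 4.74 in stroke arrays labelled TNF knockout, against 4.84, 4.77, 4.57 and 4.78 in naive ones. In C57BL/6 mice it read 5.05, 4.91, 5.10 and 5.20 after stroke, against 5.0, 5.07, 4.88 and 4.88 in naive mice. Stroke and naive arrays overlapped in both genotypes, with differences of -0.12 ± 0.09 (adjusted p = 0.798) in the knockout label and 0.11 ± 0.09 (adjusted p = 0.546) in C57BL/6.

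Read as groups that do not overlap, 2 of 5 neighbours (Ifi205 and Ackr1) lay higher after stroke in the arrays labelled TNF knockout, where 2.8% of all genes did. In C57BL/6 mice 1 of 5 (Ackr1) did, where 5.03% of all genes did. Within the knockout label, arrays of KL76 and of KL82 gave stroke differences of 0.31 and 0.34 for Ifi205 and of 0.17 and 0.22 for Ackr1. For Ifi203 they were -0.08 and 0.20, for Aim2 -0.18 and -0.30, and for Olfr231 -0.11 and -0.16. With the prefix in the fit none of the 5 neighbours passed, with adjusted p from 0.681 for Ifi205 to 0.977 for Ifi203.

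**Figure D2:**
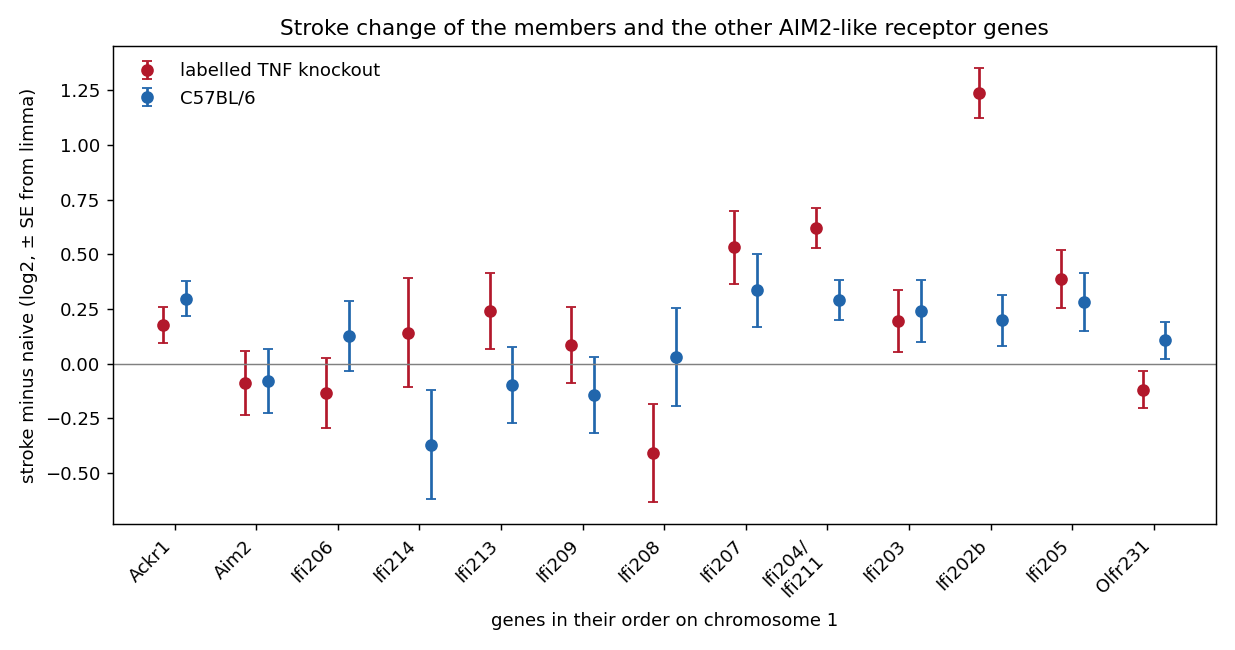
Stroke minus naive differences on the log2 scale (± SE) for the measured genes and the other AIM2-like receptor genes, in their order along chromosome 1, in arrays labelled TNF knockout and in C57BL/6 arrays. Ifi202b at 1.24 and the shared probe set of Ifi204 and Ifi211 at 0.62 lie highest in the knockout label, and no gene of the C57BL/6 series exceeds 0.34.

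The comparison of the labels chose these genes, so its values are given as a description, with no test. After stroke Ifi202b lay higher in the knockout label without overlap, as 3.04% of all genes did, and Ackr1 and Olfr231 lay lower without overlap, as 2.76% of all genes did. In naive mice Ackr1 and Olfr231 again lay lower without overlap, as 4.15% of all genes did, and Ifi202b overlapped. Ackr1 differed by -0.40 ± 0.08 (SE) after stroke and by -0.28 ± 0.08 in naive mice, and Olfr231 by -0.44 ± 0.09 and -0.22 ± 0.09. Ifi203 differed by 0.23 after stroke and 0.27 in naive mice, Ifi205 by 0.30 and 0.19, and Aim2 by -0.14 in each state, all with overlapping arrays. These smaller values moved when 1 array was left out. In naive mice Ifi203 was 0.12 without C57BL/6 array 4, Ifi205 was 0.08 without C57BL/6 array 1 and 0.30 without C57BL/6 array 3, and Aim2 lay nearer 0 without C57BL/6 array 1 or knockout-label arrays 1 or 3 (-0.07 to -0.03) and farther from it without knockout-label arrays 2 or 4 (-0.22 and -0.23). After stroke Ifi203 was 0.14 without knockout-label array 2, Ifi205 was 0.18 without knockout-label array 4, and Aim2 was -0.26 without C57BL/6 array 1, -0.06 without C57BL/6 array 4 and -0.08 without knockout-label array 1. With only the knockout-label arrays of prefix KL82, Aim2 turned to 0.14 in naive mice, and with only those of KL76 Ifi203 turned to -0.08 after stroke. The median over the 5 neighbours was -0.14 in each state.

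Ackr1 averaged 7.75 ± 0.03 (SD, n = 4 each) in stroke arrays labelled TNF knockout and 7.57 ± 0.08 in naive ones, against 8.14 ± 0.14 in C57BL/6 stroke arrays and 7.85 ± 0.11 in naive ones. In the order of these means only the neighbours stroke knockout label and naive C57BL/6 overlapped. Olfr231 averaged 4.62 ± 0.09 in stroke arrays labelled TNF knockout and 4.74 ± 0.12 in naive ones, against 5.07 ± 0.12 in C57BL/6 stroke arrays and 4.96 ± 0.09 in naive ones, and only the step between the genotypes was without overlap. For Ifi203, Ifi205 and Aim2, every step between neighbouring groups was within the overlap of the arrays. Ifi203 averaged 4.69, 4.49, 4.46 and 4.22 in the order stroke knockout label, naive knockout label, C57BL/6 stroke and C57BL/6 naive. Ifi205 averaged 3.86, 3.56, 3.47 and 3.28 in the order stroke knockout label, C57BL/6 stroke, naive knockout label and C57BL/6 naive. Aim2 averaged 5.29, 5.38, 5.43 and 5.51 in the order stroke knockout label, naive knockout label, C57BL/6 stroke and C57BL/6 naive.

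The stroke changes differed between the labels (TNF knockout minus C57BL/6) by 1.04 for Ifi202b, against 0.11 for Ifi205, -0.01 for Aim2, -0.05 for Ifi203, -0.12 for Ackr1 and -0.23 for Olfr231. Over all 19938 genes, 0.0% passed the threshold for this difference (0 genes by limma, 1480 or 7.42% at an unadjusted p under 0.05). The comparisons share arrays, so a high stroke group enters the stroke change, the label difference after stroke and the difference of changes alike.

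The other AIM2-like receptor genes of the cluster, measured by 6 probe sets of 1 symbol, did not pass in any comparison (limma, 0 of 6). At an unadjusted p under 0.05 they were 1 of 6 for stroke in the knockout label, against 8.39% of all genes, and 0 of 6 in C57BL/6, against 17.1%. Between the labels they were 1 of 6 after stroke and 1 of 6 in naive mice, against 11.3% and 16.6%. Their median stroke difference was 0.12 in the knockout label and -0.03 in C57BL/6. Ifi207 differed by 0.53 ± 0.17 (SE, adjusted p = 0.265) in the knockout label and by 0.34 ± 0.17 (adjusted p = 0.315) in C57BL/6. Ifi208 differed by -0.41 in the knockout label and by 0.03 in C57BL/6, Ifi213 by 0.24 and -0.10, and Ifi206 by -0.13 and 0.13. Ifi209 differed by 0.09 and -0.14, and Ifi214 by 0.14 and -0.37, in the same order, and both signs thus occur among close relatives. Like Ifi202b these probe sets were dim, with group means from 2.46 to 4.27.

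Further out, 52 tested genes that are not among the 8 lie between Ackr1 and Olfr231 or among the 20 nearest on either side. For stroke, 0 of 52 passed in the knockout label, against 0.642% of all genes, and 1 of 52 in C57BL/6, against 1.68% (limma; at an unadjusted p under 0.05, 6 of 52 against 8.39% and 4 of 52 against 17.1%). The 1 was Tagln2, which rose by 0.44 ± 0.10 (SE, adjusted p = 0.0251) in C57BL/6. Between the labels, 1 of 52 passed in naive mice, against 0.386% of all genes, and 0 of 52 after stroke, against 0.436% of all genes. At an unadjusted p under 0.05 they were 10 of 52 in naive mice and 6 of 52 after stroke, against 16.6% and 11.3% of all genes. The gene that passed was Kcnj10, a potassium channel of astrocytes, higher by 0.64 ± 0.13 in the knockout label in naive mice (adjusted p = 0.0337), and its difference after stroke was 0.51 ± 0.13 (adjusted p = 0.0881). Tagln2 failed without C57BL/6 naive arrays 1, 2 or 4 or stroke arrays 2, 3 or 4 (adjusted p 0.0565 to 0.0855), and Kcnj10 without C57BL/6 naive arrays 1, 3 or 4 or knockout-label naive arrays 2, 3 or 4 (adjusted p 0.0552 to 0.0957). Tagln2 and Kcnj10 are named because they passed, after their values were seen. The medians of the 52 differences lay between -0.024 and -0.004 in every comparison.

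Cadm3, an adhesion molecule of neurons lying between Ackr1 and Aim2, differed between the labels by -0.05 after stroke (adjusted p = 0.822) and by -0.14 in naive mice (adjusted p = 0.293), and Ackr1 beside it by -0.40 and -0.28. Olfr427, beside Olfr231, differed by 0.06 after stroke (adjusted p = 0.893) and by -0.24 in naive mice (adjusted p = 0.273). None of the 19 olfactory receptor genes of the region passed in any comparison (limma). At an unadjusted p under 0.05 between the labels they were 0 of 19 after stroke and 3 of 19 in naive mice, against 11.3% and 16.6% of all genes. The nearest tested genes outside, Olfr418 and Olfr424, differed between the labels by 0.01 and -0.02 after stroke and by -0.03 and 0.14 in naive mice. Cadm3 and Olfr427 are named for their position, after their values were seen.

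**Figure D3:**
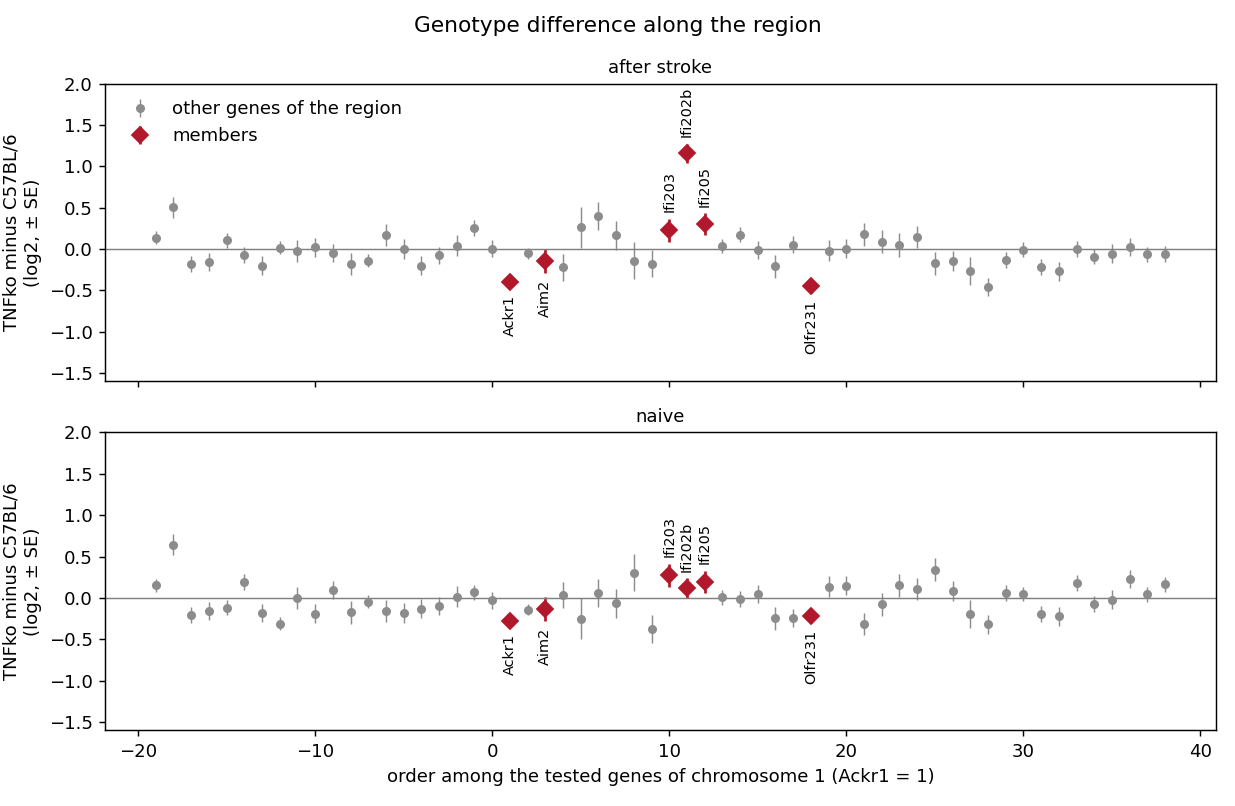
Differences between arrays labelled TNF knockout and C57BL/6 arrays (log2, ± SE) for the measured genes and 52 other tested genes in their order along chromosome 1, after stroke above and in naive mice below. Ifi202b reaches 1.16 after stroke and 0.12 in naive mice, and Ackr1 and Olfr231 lie below 0 in both panels.

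Interferon signalling, which controls this family, was followed by its receptors and transducers, of which 17 were measured. In stroke arrays labelled TNF knockout, 4 of 17 rose and 0 fell, against 0.642% of all genes in either direction, with 5 of 17 at an unadjusted p under 0.05, against 8.39% of all genes. Of the 17, 9 lay above 0, and the list's median was 0.00 beside an all-gene median within 0.01 of 0. Irf7, the transcription factor that amplifies interferon production, rose by 1.19 ± 0.13 (SE, limma, adjusted p = 2.97e-05), and Usp18, a feedback inhibitor at the interferon receptor, by 0.84 ± 0.14 (adjusted p = 0.00405). Irf9 and Stat2, transcription factors that act downstream of the type I interferon receptor, rose by 0.47 ± 0.09 (adjusted p = 0.0107) and 0.42 ± 0.08 (adjusted p = 0.0137). Stat2 did not pass with the prefix in the model (0.43, adjusted p = 0.0630), or without naive array 1 or stroke arrays 3 or 4 of the knockout label (adjusted p 0.0502 to 0.0710), and Irf9 did not pass without naive array 2 or stroke array 4 (adjusted p = 0.0540 and 0.0528). Within KL76 and KL82, Irf7 differed by 1.38 and 1.16, Usp18 by 0.91 and 0.85, Irf9 by 0.51 and 0.48 and Stat2 by 0.38 and 0.48.

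In C57BL/6 mice 1 of 17 rose, against 1.68% of all genes, although 7 of 17 had an unadjusted p under 0.05, against 17.1% of all genes. Of the 17, 13 lay above 0, and the list's median was 0.09. This was Ifngr1, a chain of the interferon gamma receptor, at 0.46 ± 0.10 (SE, adjusted p = 0.0173), which did not pass without naive array 1 (adjusted p = 0.0647) or stroke array 4 (adjusted p = 0.0610). Irf9 differed there by 0.34 ± 0.09 (adjusted p = 0.0505), Stat2 by 0.17 ± 0.08 (adjusted p = 0.292) and Irf7 by 0.18 ± 0.13 (adjusted p = 0.504). Usp18 differed by 0.32 ± 0.14 (adjusted p = 0.261) and Ifna4, a type I interferon, by -0.28 ± 0.12 (adjusted p = 0.230). Irf8, a transcription factor of myeloid cells, differed by 0.39 ± 0.12 (adjusted p = 0.249) in the knockout label and by 0.36 ± 0.12 (adjusted p = 0.141) in C57BL/6. Between the labels after stroke Stat2 was higher in the knockout label by 0.41 ± 0.08 (adjusted p = 0.0238). It was 1 of 17, against 0.436% of all genes, and 0 of 17 passed in naive mice, against 0.386% (limma). At an unadjusted p under 0.05 they were 5 of 17 after stroke and 2 of 17 in naive mice, against 11.3% and 16.6% of all genes. Irf7 was among them in both states without passing. It differed by 0.55 ± 0.13 (SE, limma, adjusted p = 0.0668) after stroke and by -0.46 ± 0.13 (adjusted p = 0.0994) in naive mice. The stroke change of Irf7 in the knockout label thus started from a lower naive mean than in C57BL/6. For the difference of stroke changes 0 of 17 passed, and 5 of 17 had an unadjusted p under 0.05, against 7.42% of all genes. The difference of Stat2 between the labels after stroke passed in 10 of 16 fits that left out 1 array. It failed without C57BL/6 stroke arrays 1, 2 or 4 or knockout-label stroke arrays 1, 3 or 4 (adjusted p 0.0519 to 0.110).

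Stat2 was also the gene whose values most resembled those of Ifi202b, by Pearson's r over the 16 arrays, with unnamed gene models left out of the ranking. It read 7.56, 7.47, 7.62 and 7.70 in stroke arrays labelled TNF knockout and 7.16, 7.20, 7.19 and 7.12 in naive ones, against 7.12, 7.13, 7.38 and 7.10 in C57BL/6 stroke arrays and 6.91, 6.97, 7.14 and 7.03 in C57BL/6 naive ones. Its r with Ifi202b was 0.937, and 0.603 after the group means had been taken out of both genes. C57BL/6 stroke array 3 and C57BL/6 naive array 3 were the highest of their groups for both genes. After Stat2 came Amy1, an amylase (r = 0.833), Slfn4, a schlafen gene of myeloid cells (0.824), Wfs1, a protein of the endoplasmic reticulum (0.818), Adamts1, a secreted protease (0.807), and Cd274, which encodes the ligand PD-L1 (0.804). For these 5 the r without group means lay between -0.07 and 0.15, so that their likeness to Ifi202b lay in the group means.

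Among the neighbours, r with Ifi202b was 0.743 for Ifi205, 0.614 for Ifi203, -0.141 for Ackr1, -0.308 for Aim2 and -0.603 for Olfr231, and it was 0.798 for the shared probe set of Ifi204 and Ifi211. Points of 1 group share its mean, so these values describe the arrays and carry no test. The family members Ifi205, Ifi203 and Ifi204 with Ifi211 were thus the positive ones, and Aim2 was not among them.

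**Figure D4:**
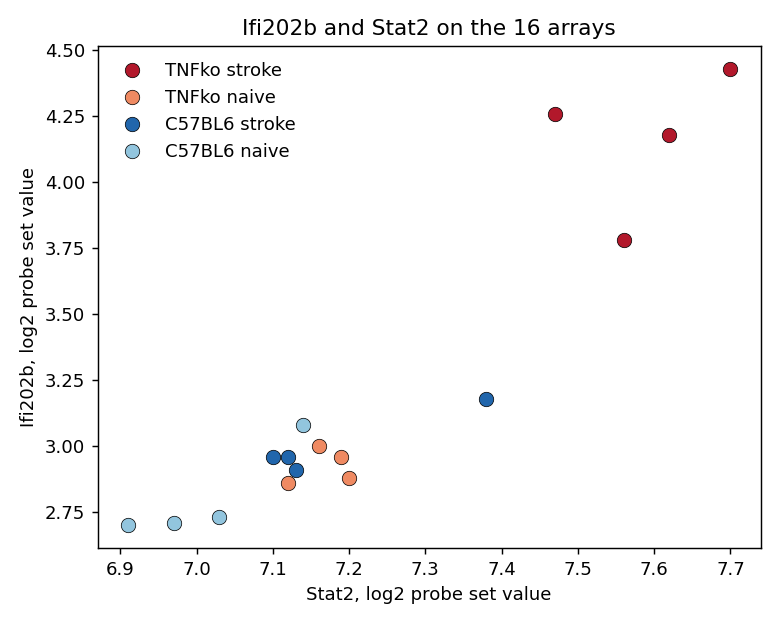
Log2 values of Ifi202b against Stat2 on the 16 arrays, by group. The 4 stroke arrays labelled TNF knockout lie apart at 3.78 to 4.43 for Ifi202b and 7.47 to 7.70 for Stat2, and the other 12 arrays lie at 2.70 to 3.18 and 6.91 to 7.38.

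The partners of Aim2 in the inflammasome did not pass in any comparison (limma, 0 of 12). At an unadjusted p under 0.05 they were 2 of 12 for stroke in the knockout label, against 8.39% of all genes, and 3 of 12 in C57BL/6, against 17.1%. Between the labels they were 1 of 12 after stroke and 1 of 12 in naive mice, against 11.3% and 16.6%. The list had median stroke differences of 0.09 and 0.05. Il1b, the cytokine that caspase-1 matures, differed by 0.75 ± 0.29 (SE, adjusted p = 0.441) after stroke in the knockout label and by 0.68 ± 0.29 (adjusted p = 0.239) in C57BL/6. Casp4, which encodes mouse caspase-11 and acts in the non-canonical pathway, differed by 0.37 (adjusted p = 0.319) and 0.41 (adjusted p = 0.0989), and Casp8 by 0.23 and 0.38. Nlrp1b, another sensor that builds an inflammasome, differed by 0.13 and -0.17, and Ninj1, which ruptures the membrane of dying cells, by 0.06 and 0.15.

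Of 16 other genes of cytosolic DNA sensing, 0 passed for stroke in the knockout label, against 0.642% of all genes, and 1 rose in C57BL/6 mice, against 1.68% (limma; at an unadjusted p under 0.05, 3 of 16 against 8.39% and 2 of 16 against 17.1%). This was Sting1, the adaptor downstream of the DNA sensor cGAS, which differed by 0.32 ± 0.09 (SE, adjusted p = 0.183) in the knockout label and rose by 0.68 ± 0.09 (adjusted p = 0.000399) in C57BL/6. It differed between the labels by -0.22 after stroke (adjusted p = 0.366), and the test of the difference of stroke changes was not passed by any gene. Samhd1 differed by 0.26 in the knockout label and 0.19 in C57BL/6, Zbp1 by 0.25 and 0.08, Irf3 by 0.15 and 0.22, and Ddx41 by -0.17 and -0.03. The other atypical chemokine receptors, relatives of Ackr1, did not pass in any comparison (limma, 0 of 4, and 0 of 4 at an unadjusted p under 0.05). Ccrl2 had the smallest p of these for stroke, at 0.26 (adjusted p = 0.606) in the knockout label and 0.15 (adjusted p = 0.573) in C57BL/6.

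In whole brain tissue, fewer cells of a type and less RNA per cell cannot be told apart. For microglia and macrophages, the mean of 8 markers lay at 6.47 to 6.60 in stroke arrays labelled TNF knockout and 6.41 to 6.57 in naive ones, against 6.56 to 6.84 in C57BL/6 stroke arrays and 6.48 to 6.53 in naive ones. Cd68, a lysosomal protein of phagocytes, was the 1 of 8 that passed for stroke in each genotype. Of all genes, 0.642% passed in the knockout label and 1.68% in C57BL/6. Cd68 rose by 0.60 ± 0.08 (SE, limma, adjusted p = 0.000372) in the knockout label and by 1.09 ± 0.08 (adjusted p = 1.94e-07) in C57BL/6. The counts at an unadjusted p under 0.05 were 4 of 8 and 3 of 8, against 8.39% and 17.1% of all genes. Between the labels after stroke Cd68 was again the 1 of 8 that passed, against 0.436% of all genes. It was lower in the knockout label, at -0.38 (adjusted p = 0.0340). The other 7 did not pass, and 4 of the 8 lay below 0 with stroke in the knockout label, P2ry12 at -0.44, Csf1r at -0.21, Tmem119 at -0.15 and Itgam at -0.13. The median of the 8 was -0.03 in the knockout label and 0.17 in C57BL/6. The mean of 9 neutrophil and monocyte markers lay at 4.18 to 4.43 in stroke arrays labelled TNF knockout and 4.07 to 4.14 in naive ones, against 4.24 to 4.41 and 4.19 to 4.34 in C57BL/6. The neutrophil and monocyte mean was thus higher in every stroke array than in every naive array of the knockout label, and overlapped in C57BL/6. This mean was also lower in every naive array of the knockout label than in every naive C57BL/6 array. Of these 9 markers 1 passed for stroke in each genotype, against 0.642% of all genes in the knockout label and 1.68% in C57BL/6. This was Fcgr1, an antibody receptor of monocytes and macrophages. It rose by 0.60 ± 0.10 (adjusted p = 0.00604) in the knockout label and by 0.55 ± 0.10 (adjusted p = 0.0106) in C57BL/6. At an unadjusted p under 0.05 they were 4 of 9 in each genotype, against 8.39% and 17.1% of all genes. In the knockout label all but Camp (-0.008) lay above 0. In C57BL/6 4 lay below 0, Camp at -0.245, Ly6g at -0.125, Ngp at -0.107 and S100a9 at -0.015. Stroke arrays labelled TNF knockout overlapped C57BL/6 stroke arrays in both marker means. All 8 microglia and macrophage markers still lay lower in the knockout label after stroke, with a median difference of -0.225. Of these 8, 3 had an unadjusted p under 0.05, against 11.3% of all genes. Of the 9 neutrophil and monocyte markers, 5 lay above 0 in that comparison and 4 below. The difference of Cd68 between the labels passed in 10 of 16 fits that left out 1 array, and failed without C57BL/6 stroke arrays 2, 3 or 4 or knockout-label stroke arrays 1, 2 or 4 (adjusted p 0.0539 to 0.154). Other marker means also separated stroke from naive arrays: those of endothelium and neurons, given with Ackr1, lay lower in every stroke array than in every naive array of the knockout label, and in C57BL/6 those of neurons lay lower and those of microglia and macrophages higher without overlap. The part of these cells in the values of Ifi202b was not tested.

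Ackr1 is made by red blood cells and endothelium. Red blood cell markers (2, Alas2 and Slc4a1) averaged 4.92 to 5.48 in stroke arrays labelled TNF knockout and 4.81 to 5.46 in naive ones, against 5.25 to 5.54 in C57BL/6 stroke arrays and 5.17 to 5.75 in naive ones. Of these, 0 of 2 passed in any comparison (limma). Between the labels 1 of 2 had an unadjusted p under 0.05 in each state, against 11.3% of all genes after stroke and 16.6% in naive mice. Endothelial markers (7) averaged 6.62 to 6.66 in stroke arrays labelled TNF knockout and 6.69 to 6.80 in naive ones, against 6.63 to 6.95 and 6.58 to 6.86 in C57BL/6. Between the labels 1 of these 7 passed after stroke, against 0.436% of all genes, and 0 of 7 in naive mice, against 0.386%. The counts at an unadjusted p under 0.05 were 2 of 7 and 0 of 7, against 11.3% and 16.6% of all genes. The 1 that passed was Cldn5, a tight junction protein. It differed by -0.54 ± 0.11 (SE, limma, adjusted p = 0.0396) after stroke and by -0.13 (adjusted p = 0.582) in naive mice. It passed after stroke in 5 of 16 fits that left out 1 array and failed in the others, those without any 1 stroke array of the knockout label and without C57BL/6 stroke array 1, 2 or 4 among them (adjusted p 0.0503 to 0.169). The part of these cells in the difference of Ackr1 was not tested. Lymphocyte markers (0 of 7 for stroke) and neuron markers (0 of 5) did not pass by limma. At an unadjusted p under 0.05 they were 0 and 2 in the knockout label, against 8.39% of all genes, and 0 and 1 in C57BL/6, against 17.1%. Of 4 astrocyte markers Gfap alone passed for stroke, 1 of 4 in each genotype, against 0.642% of all genes in the knockout label and 1.68% in C57BL/6. Gfap rose by 0.83 ± 0.15 (adjusted p = 0.00705) in the knockout label and 0.72 ± 0.15 (adjusted p = 0.0154) in C57BL/6. The count at an unadjusted p under 0.05 was also 1 of 4 in each, against 8.39% and 17.1% of all genes. The median of the 4 was -0.04 in the knockout label and 0.10 in C57BL/6, with Aqp4 at -0.09 and 0.12, Slc1a3 at -0.11 and -0.04 and Aldh1l1 at 0.01 and 0.07. Gfap failed in C57BL/6 without naive array 1 or stroke arrays 2 or 3 (adjusted p 0.0507 to 0.0690), and in the knockout label with the prefix in the fit (0.69, adjusted p = 0.0844). The neuron markers averaged 10.66 to 10.73 in stroke arrays labelled TNF knockout and 10.81 to 10.85 in naive ones, against 10.64 to 10.75 and 10.76 to 10.83 in C57BL/6.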

How the data were processed

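Labelled cDNA from total RNA of whole brain was hybridised to 16 Affymetrix arrays. The deposited table gives log2 summaries per probe set, which the authors had normalised between arrays. Per the submitters' processing notes the tools were RMA, GCRMA, GCOS and Partek, with neither versions nor roles. Of 28944 probe sets, 21789 had 1 symbol in the platform annotation, 1621 several and 5534 none. For genes with several probe sets of 1 symbol (999), the one with the highest mean was used, which gave 19938 genes, without a filter on dim ones.

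Groups came from the labels. The means of the 4 groups were fitted in limma 3.58.1 (R 4.3.3, 12 residual and 7.52 prior degrees of freedom). Two-sided p-values were adjusted after Benjamini and Hochberg over all genes, and 0.05 was the threshold. The fitting script was first run on simulated data with known changes. No 2 arrays held identical values.

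The members and lists were chosen with earlier results of these data known. Besides the members and Tnf, the text names all measured AIM2-like receptor genes, the nearest genes outside, up to 4 genes per list with the smallest p per stroke contrast, those past the threshold between labels, and the 6 genes most like Ifi202b. Unnamed gene models were left out of the ranking by likeness. Promoter sequences came from RefSeq (GRCm38.p6). Tables and figures used matplotlib 3.10.9, numpy 2.4.6 and pandas 2.3.3 in Python 3.11.15.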

Additional observations from a re-analysis of the deposited data

Results flagged for a closer look

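Among 28 groups of 4 arrays examined (the 6 measured genes and the shared probe set, in 4 groups each), 2 held an array far from the other 3, and chance flags about 1 in 20. In naive C57BL/6 mice, Ifi202b read 3.08 on array 3 and 2.70, 2.71 and 2.73 on the others, a gap of 0.921 of the group's range, above Dixon's critical value for 4 arrays. This array also had the highest Stat2 value of its group, 7.14. In C57BL/6 stroke arrays, the probe set of Ifi204 and Ifi211 read 4.34 on array 4 and 4.06, 4.09 and 4.05 on the others, a gap of 0.862 of the range.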

How the results depend on the processing

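Each result was recomputed under up to 11 other settings and in 16 fits that left out 1 array. The difference of Ifi202b between stroke and naive arrays labelled TNF knockout stayed positive in all of them, from 0.83 to 1.43, where it could be computed; it has no value without the 33.3% of genes with the lowest mean, which removes Ifi202b, Ifi203, Ifi205 and Olfr231. With only the knockout-label arrays of prefix KL76, Ifi202b differed between the labels after stroke by 0.777 and the difference of its stroke changes was 0.636; with those of KL82 alone that difference was 1.232. With KL76 alone, Ifi203 turned to -0.083 between the labels after stroke, and with KL82 alone Aim2 turned to 0.14 in naive mice. Leaving out arrays gave 1.07 to 1.29 for Ifi202b between the labels after stroke, 0.09 to 0.21 in naive mice, and 0.95 to 1.17 for the difference of its stroke changes.

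The count of neighbours that passed for stroke in C57BL/6 was 0, and 1 (Ackr1) without the 33.3% of genes with the lowest mean, with robust and trended variances, with the replicate block and in 1 of 16 fits that left out an array (0 to 1). For region genes between the labels the count was 1, and 4 without the dimmest 33.3%, 3 with robust and trended variances, 2 with array weights, 2 with the replicate block, 0 with KL76 alone, 0 with KL82 alone and 0 to 2 with an array left out. For region genes and stroke it was 1, and 0 with only the groups compared and 0 to 1 with an array left out. For pathway lists between the labels it was 1, and 2 without the dimmest 33.3%, 3 with robust and trended variances, 2 with the replicate block, 0 with KL76 alone, 0 with KL82 alone and 0 to 4 with an array left out; for stroke it was 6, and 4 to 7. The causes were not tested.

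Over all genes, 128 passed for stroke in the knockout label, 212 with array weights, 72 with the prefix as a term, 18 with KL76 alone and 2 with KL82 alone. Replicate numbers were not taken to pair the arrays, since same-numbered arrays correlated at -0.075 to 0.34, over 0.1 in 8 of 16 pairs, and the labels state no shared litter or day; the own number was the best match in 9 of 16. As a block they gave 140 calls. The prefix could be a term only for the knockout label.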
